A study of Mus musculus with 16 samples.

Results

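The 7 genes examined here carry antigen presentation by MHC class II. H2-Aa and H2-Ab1 encode the α and β chains of the I-A molecule, and H2-Eb1 encodes the β chain of I-E. Cd74 encodes the invariant chain, which fills the groove of newly made class II molecules and guides them to the endosome. H2-DMa and H2-DMb1 encode the subunits of H2-DM, which exchanges the remnant of the invariant chain for peptide. Ciita encodes the transactivator that switches the family on. The genes were found by symbol among the 52143 genes of the deposited liver count table, and all 7 had a row.

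Class II molecules show peptides from material taken up by the cell to CD4+ T cells. In most tissues they are made by dendritic cells, B cells and macrophages rather than by the parenchyma, and in liver the resident macrophages, the Kupffer cells, are among the cells that make them. Ciita does not bind DNA itself. It docks on a complex of RFX, CREB and NF-Y proteins that sits on the X and Y boxes found upstream of class II genes, and interferon gamma induces it.

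RNA-seq was done on livers of male C57BL6/J mice in 4 groups of 4 libraries, 16 in all. The mice were 6 weeks old at the start, ate chow or a high-fat diet (HFD, with 60% fat) for 12 weeks, and were injected every 2 weeks. Chow and HFD mice were given saline only, with no control siRNA. Chow/FGFR4 KD and HFD/FGFR4 KD mice were given an siRNA at 3 mg/kg per injection that targets Fgfr4, the hepatocyte receptor through which an intestinal hormone restrains bile acid synthesis, joined to N-acetylgalactosamine (GalNAc), a sugar that hepatocytes take up. The knockdown (KD) was thus aimed at hepatocytes rather than at leukocytes. The mice were kept 4 to a cage, but how the groups were divided among cages is not stated. Whether cage and group coincided is thus unknown, and p-values measure the spread between these 16 livers. Libraries held 3445949 to 5976449 counts, of which Gm42418, a transcript model over a ribosomal RNA repeat, took 11.1% to 22.7%. Levels are given as CPM, that is, counts scaled to a common library size with the trimmed mean of M-values (TMM). The siRNA target itself averaged 29.7 ± 4.57 CPM in Chow livers and 4.78 ± 1.6 CPM under KD on chow (SD, n = 4). On HFD it averaged 25.7 ± 4.25 CPM without and 3.74 ± 1.35 CPM with siRNA, and the treated and untreated livers did not overlap on either diet.

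Of the 7 genes, 5 lie on chromosome 17 within 197 kb (GRCm38), in the order H2-DMa, H2-DMb1, H2-Ab1, H2-Aa and H2-Eb1. H2-Aa spans chr17:34282744-34287823 on the minus strand, H2-Ab1 chr17:34257689-34269419 and H2-Eb1 chr17:34305867-34316674, both on the plus strand. H2-DMa spans chr17:34119541-34139101 and H2-DMb1 chr17:34153072-34160230, both on the plus strand. Ciita lies on chromosome 16 (chr16:10480059-10528418, plus strand), and Cd74 on neither of these chromosomes. All 7 are annotated as protein coding.

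The RefSeq promoter windows (GRCm38.p6) cover H2-Aa, H2-Eb1, H2-DMa and H2-DMb1. These windows were searched on both strands, over the 250 bases before the start site, for letters of the Y box (ATTGG, and the longer CTGATTGG that contains it) and of the X box (TAGNAAC, and the longer CCTAGNAAC that contains it). The stretches below are shown because they hold letters of the boxes through which Ciita is known to act. Capitals mark the longest matches on the strand shown, and each sequence reads 5′ to 3′ on the strand of the gene. The H2-Aa stretch is chr17:34287824-34287943 on the minus strand and the H2-Eb1 stretch is chr17:34305747-34305866 on the plus strand, and both are the 120 bases before the start site. The H2-DMb1 stretch is the 30 bases chr17:34153093-34153122 on the plus strand, which lie before the RefSeq start but within the first exon of a GENCODE transcript that starts upstream.
H2-Aa: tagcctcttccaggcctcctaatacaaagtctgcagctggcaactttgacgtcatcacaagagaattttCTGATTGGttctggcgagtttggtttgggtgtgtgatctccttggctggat
H2-Eb1: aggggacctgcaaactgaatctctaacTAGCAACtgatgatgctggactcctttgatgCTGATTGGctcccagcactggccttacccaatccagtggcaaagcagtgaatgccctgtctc
H2-DMb1: CCTAGTAACtgatgatgctaggctgattca

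The long form of the Y box lay 44 to 51 bases before the start of H2-Aa and 55 to 62 bases before that of H2-Eb1, and 3.83% of 32851 windows held it. H2-Eb1 also held ATTGG on the other strand, which reads ccaat in the stretch shown, 31 to 35 bases before the start. The short form, held by 33.8% of windows, lay 57 to 61 bases before the start of H2-DMb1, just past the stretch shown. TAGNAAC, held by 9.93% of windows, lay upstream of the Y box letters in both genes, with 27 bases between them in H2-Eb1 and 28 in H2-DMb1. CCTAGNAAC, held by 1.29% of windows, was in H2-DMb1. Neither X box form was found in the H2-Aa window. H2-DMa has 2 windows, of which one held none of these letters and the other held ATTGG 194 to 198 bases before the start. The H2-Eb1 and H2-DMb1 windows also shared an unbroken run of 13 letters, AACTGATGATGCT, which was looked for after the sequences were seen and was in 2 of the 32851 windows. These are matches of letters, and no binding was measured.

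The genes were expressed at low and very unequal levels. Per kilobase of the median coding transcript, the mean level over the 16 libraries was 22.4 CPM for Cd74, 11.8 CPM for H2-Aa, 11.8 CPM for H2-Ab1 and 7.26 CPM for H2-Eb1. On the same scale the mean level was 1.08 CPM for H2-DMb1, 0.913 CPM for H2-DMa and 0.25 CPM for Ciita. The invariant chain stood above the chains it serves, and the peptide exchanger and the transactivator stood at the foot of the order. All neighbours in this order had ranges over the 16 livers that overlapped, except H2-Eb1 (3.18 to 15.4 CPM per kilobase) and H2-DMb1 (0.172 to 2.31 CPM per kilobase).

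The depth behind these levels differed accordingly. Over all 16 libraries Cd74 had 2386 counts, H2-Aa 934, H2-Ab1 846 and H2-Eb1 838. H2-DMb1 had 126 counts, H2-DMa 120 and Ciita 79, and Ciita had 3 counts or fewer in 7 of 16 libraries. Genes were left out of the test when they were under 1 CPM in more than 4 libraries, which kept 11324 genes. H2-Aa, H2-Ab1, H2-Eb1, Cd74 and H2-DMa passed, whereas H2-DMb1 and Ciita did not. A count of 3 corresponds to 0.432 to 0.908 CPM, depending on the library, so that single values of Ciita carry little weight. Reads of H2-DMb1 are also hard to assign, since 31.4% of its 31-base words occur in H2-DMb2, and its values are uncertain for that reason. H2-DMa shared 9.23% of its words with Brd2, the gene next to it, and H2-Aa, H2-Ab1, H2-Eb1 and Cd74 shared 0.267% to 1.41% with any gene.

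The first comparison asked what the diet alone did. Of the 5 tested genes, the α and β chains and the invariant chain rose in livers of HFD mice. H2-Ab1 rose 2.14-fold, H2-Eb1 2.13-fold, H2-Aa 1.94-fold and Cd74 1.51-fold, and these 4 of the 5 tested genes were called. Summed over the 7 genes, Chow livers had 47.6 ± 18.6 CPM and HFD livers 82.2 ± 25 CPM (SD, n = 4). Calls were made in limma-voom at p under 0.05 together with an adjusted p under 0.25, the threshold named in the methods of the study. This rule is lenient, and on this comparison it called 26% of all tested genes, 13.3% as higher and 12.7% as lower. Scaling by library totals in place of TMM shifted the median of all genes by 0.28 and made 92.1% of calls higher, and 4 of the 5 class II genes were called then too. The median log2 change was 0.96 over the 5 tested class II genes and 0.01 over all genes tested. Signs of library makeup differed between these groups too. Mitochondrial transcripts took 3.6% to 4.5% of counts in Chow and 4.66% to 5.17% in HFD, without overlap, and Gm42418 took 13.4% to 22.7% and 11.1% to 15.6%. In the second Chow liver, which had the lowest class II sum, they took 3.6% and 22.2%. Their part in the class II result was not tested.

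H2-Ab1 was 8.0, 2.35, 6.90 and 10.2 CPM in the 4 Chow livers and 13.3, 12.3, 19.6 and 9.89 CPM in the 4 HFD livers. The groups overlapped through the highest Chow liver and the lowest HFD liver. The log2 change was 1.10 (SE 0.36, 95% interval 0.34 to 1.85, adjusted p = 0.0634).

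H2-Eb1 was 4.51, 4.70, 7.30 and 11.1 CPM in Chow and 15.4, 9.48, 21.9 and 10.7 CPM in HFD. Of the HFD livers, 2 lay above every Chow liver, and of the Chow livers, 3 lay below every HFD liver. The log2 change was 1.09 (SE 0.34, 95% interval 0.37 to 1.80, adjusted p = 0.0533).

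H2-Aa was 9.84, 2.87, 8.52 and 10.2 CPM in Chow and 16.9, 11.8, 22.2 and 8.68 CPM in HFD. The second Chow liver was far below the others, and the fourth HFD liver lay among the Chow livers. The log2 change was 0.96 (SE 0.37, 95% interval 0.18 to 1.74, adjusted p = 0.112).

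Cd74 was 20.1, 14.3, 22.3 and 36 CPM in Chow and 37.5, 28.6, 45.4 and 24.6 CPM in HFD. The fourth Chow liver lay above 2 of the HFD livers. The log2 change was 0.60 (SE 0.27, 95% interval 0.04 to 1.16, adjusted p = 0.167), the smallest of the 4 called changes.

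H2-DMa was 1.23, 0.783, 1.22 and 1.66 CPM in Chow and 2.02, 2.29, 1.23 and 1.62 CPM in HFD. Its log2 change of 0.49 (SE 0.41, 95% interval -0.39 to 1.36, adjusted p = 0.492) was not called, and at 3 to 14 counts a library a change of the size seen in H2-Ab1 lay inside its interval. H2-DMb1 was 0.820, 1.17, 0.811 and 1.10 CPM in Chow and 2.14, 2.76, 3.24 and 1.79 CPM in HFD. The Chow and HFD livers of H2-DMb1 did not overlap, which was so upwards for 8.33% and downwards for 7.76% of all tested genes, and those of the other 6 genes overlapped. In a fit without the filter its log2 change was 1.26 (SE 0.39, adjusted p = 0.0749), and with H2-DMb2 added to it 1.16 (SE 0.38, adjusted p = 0.068).

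Ciita was 0.205, 0.261, 0.609 and 1.42 CPM in Chow and 1.44, 0.981, 0.767 and 0.404 CPM in HFD. These values stand for 1 to 6 and 2 to 10 counts, and the groups overlapped. Without the filter its log2 change was 0.65 (SE 0.55, 95% interval -0.50 to 1.80, adjusted p = 0.511). At this depth the interval held both 0 and the change of H2-Aa.

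Some calls depended on single livers. Without the second Chow liver, or without the third HFD liver, H2-Aa and Cd74 were lost and 2 of the 5 genes were called. The log2 change of H2-Aa was then 0.60 and 0.74, and that of Cd74 0.41 and 0.45. Cd74 was also lost without the first or the third Chow liver, without the first HFD liver, and in edgeR. H2-Ab1 and H2-Eb1 were called whichever liver was left out, with log2 changes of 0.72 to 1.31 and 0.86 to 1.33. At an adjusted p under 0.05, which 9.2% of all tested genes passed, limma called 0 of the 5 genes (4 had an unadjusted p under 0.05), edgeR called 1, DESeq2 called 2 and limma with library totals called 4.

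**Figure D1:**
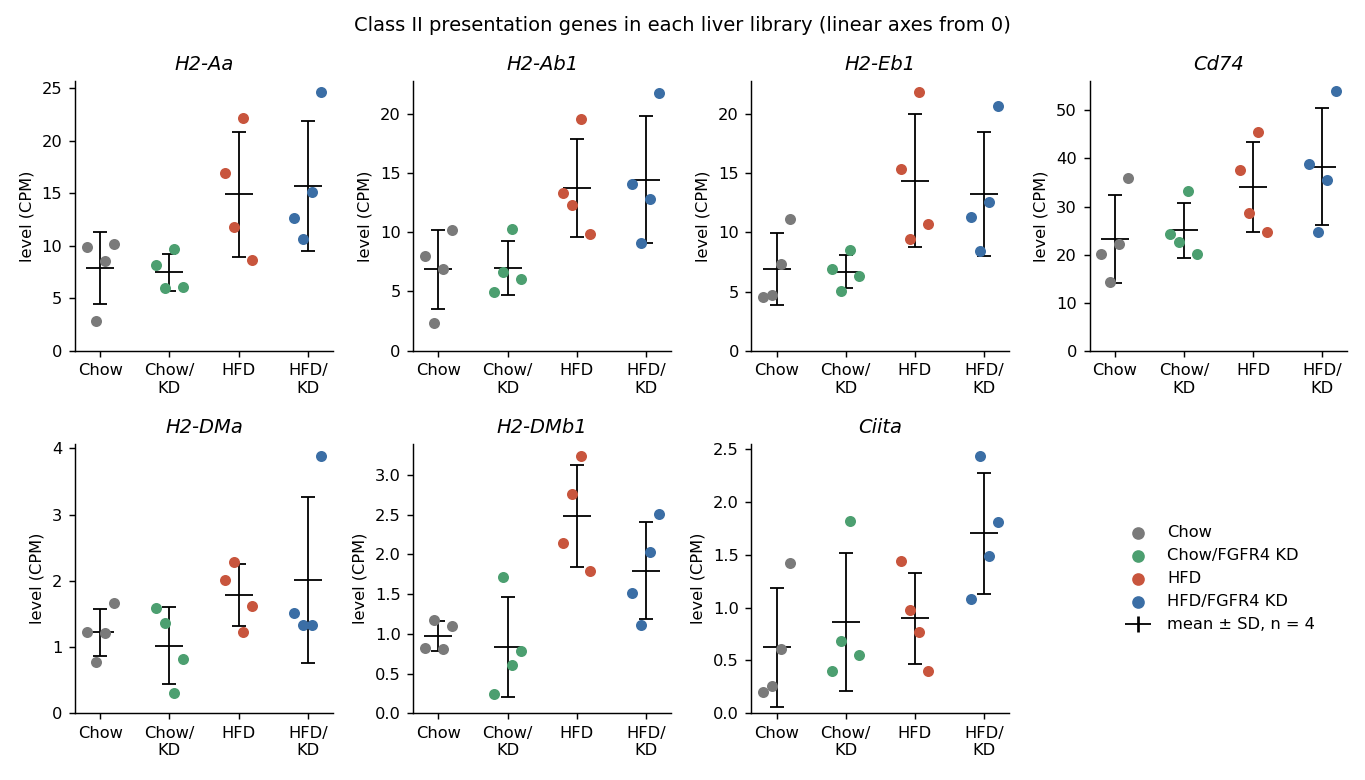
Level of each of the 7 class II presentation genes in each liver library, in CPM on linear axes that start at 0. Points are single livers by group, and bars give the mean ± SD (n = 4). H2-Aa, H2-Ab1, H2-Eb1 and Cd74 have higher means in both HFD groups than in both chow groups, and H2-DMa shows 1 HFD/FGFR4 KD liver at 3.89 CPM.

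The same comparison was then made between the 2 groups given siRNA, which share no library with the first. H2-Ab1, H2-Aa, H2-Eb1 and Cd74 were called here as well. H2-Ab1 was 2.05-fold, H2-Aa 2.01-fold, H2-Eb1 1.88-fold and Cd74 1.5-fold as high in HFD/FGFR4 KD as in Chow/FGFR4 KD, and these were 4 of the 5 tested genes, against 20.2% of all tested genes (10.1% higher). The median log2 change of the 5 genes was 0.91, and that of all genes tested was -0.01. Summed over the 7 genes, Chow/FGFR4 KD livers had 48.9 ± 10.6 CPM and HFD/FGFR4 KD livers 87.2 ± 30.2 CPM (SD, n = 4). Here library totals made 82.8% and upper quartile scaling 61.4% of all calls higher, with 5 and 4 of the 5 class II genes called.

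H2-Aa was 8.13, 5.94, 9.69 and 6.07 CPM in Chow/FGFR4 KD and 12.6, 10.6, 15.1 and 24.6 CPM in HFD/FGFR4 KD. These groups did not overlap, which was so upwards for 5.93% and downwards for 5.61% of all tested genes, whereas those of the other 6 genes overlapped. The log2 change was 1.01 (SE 0.39, 95% interval 0.19 to 1.82, adjusted p = 0.157).

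H2-Ab1 was 4.96, 6.63, 10.3 and 6.07 CPM in Chow/FGFR4 KD and 14.1, 9.07, 12.8 and 21.8 CPM in HFD/FGFR4 KD. Its log2 change was 1.04 (SE 0.36, adjusted p = 0.124). The groups overlapped only through the third chow-fed and the second HFD-fed liver.

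H2-Eb1 was 6.94, 5.03, 8.48 and 6.34 CPM in Chow/FGFR4 KD and 11.3, 8.41, 12.6 and 20.7 CPM in HFD/FGFR4 KD, with a log2 change of 0.91 (SE 0.36, adjusted p = 0.166). Cd74 was 24.2, 22.6, 33.3 and 20.1 CPM in Chow/FGFR4 KD and 38.8, 24.8, 35.5 and 54.1 CPM in HFD/FGFR4 KD, with a log2 change of 0.58 (SE 0.27, adjusted p = 0.236). In both genes the second HFD-fed liver lay within the chow-fed range. The fourth HFD/FGFR4 KD liver was the highest of its group in H2-Aa, H2-Ab1, H2-Eb1, Cd74, H2-DMa and H2-DMb1, and without it 0 of the 5 genes were called, with log2 changes of 0.81 for H2-Aa, 0.85 for H2-Ab1, 0.71 for H2-Eb1 and 0.41 for Cd74. Without the second or the fourth Chow/FGFR4 KD liver, or without the third HFD/FGFR4 KD liver, 1 gene was called. Without the first liver of either group 3 genes were called. At an adjusted p under 0.05, which 3.1% of all tested genes passed, limma, edgeR and DESeq2 each called 0 of the 5 genes (4 had an unadjusted p under 0.05 in limma).

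H2-DMa was 1.59, 1.37, 0.303 and 0.827 CPM in Chow/FGFR4 KD and 1.52, 1.33, 1.33 and 3.89 CPM in HFD/FGFR4 KD. Its log2 change of 0.84 (SE 0.44, 95% interval -0.08 to 1.76, adjusted p = 0.292) was not called. H2-DMb1 was 0.241, 1.71, 0.605 and 0.785 CPM in Chow/FGFR4 KD and 1.52, 1.11, 2.03 and 2.51 CPM in HFD/FGFR4 KD. Without the filter its log2 change was 1.20 (SE 0.45, adjusted p = 0.244), but with H2-DMb2 added it was 0.71 (SE 0.41, adjusted p = 0.355), and the call was lost.

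Ciita was 0.397, 0.686, 1.82 and 0.551 CPM in Chow/FGFR4 KD and 1.08, 2.43, 1.49 and 1.81 CPM in HFD/FGFR4 KD. HFD/FGFR4 KD was the only group in which Ciita exceeded 3 counts in every liver. Without the filter its log2 change was 1.08 (SE 0.49, 95% interval 0.04 to 2.11, adjusted p = 0.361), which was not called.

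No effect of Fgfr4 knockdown on these genes was detectable. On HFD, 0 of the 5 tested genes were called by limma, edgeR or DESeq2, against 3.14% of all tested genes in limma (1.5% higher and 1.64% lower), and 0 had an unadjusted p under 0.05 in limma, edgeR or DESeq2. The log2 changes were 0.04 for H2-Aa (95% interval -0.60 to 0.68), -0.00086 for H2-Ab1 (-0.60 to 0.60), -0.16 for H2-Eb1 (-0.75 to 0.43) and 0.13 for Cd74 (-0.38 to 0.65). That of H2-DMa was 0.0052 (-0.79 to 0.80). All 5 intervals lay within -1 and 1 on the log2 scale. HFD/FGFR4 KD and HFD livers overlapped for all 7 genes, while 3.16% of all tested genes did not overlap upwards and 3.33% downwards. Scaling by library totals made 33.3% of the calls over all genes higher, and 0 of the 5 class II genes were called by limma then. This comparison shares its 4 HFD livers with the first diet comparison and its 4 HFD/FGFR4 KD livers with the second.

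Ciita was the gene furthest from 0 in this comparison. It was 0.898 ± 0.433 CPM in HFD and 1.71 ± 0.57 CPM in HFD/FGFR4 KD (SD, n = 4), and 3 of 4 HFD/FGFR4 KD livers lay above every HFD liver. Its log2 change without the filter was 0.88 (SE 0.45, 95% interval -0.06 to 1.82, adjusted p = 0.452), which was not called. H2-DMb1 was 2.48 ± 0.64 CPM in HFD and 1.79 ± 0.61 CPM in HFD/FGFR4 KD, with a log2 change of -0.48 (SE 0.33, adjusted p = 0.628).

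On chow, 0 of the 5 tested genes were called by limma, edgeR or DESeq2 and 0 had an unadjusted p under 0.05, and the 1 gene of all those tested that limma called (0.00883%) was Fgfr4. The log2 changes ran from -0.35 for H2-DMa to 0.15 for Cd74, with intervals of -1.34 to 0.64 and -0.46 to 0.76. Those of H2-Aa, H2-Ab1 and H2-Eb1 were -0.0096, 0.06 and 0.02 (SE 0.44, 0.42 and 0.41). The standard errors of all 5 genes were larger on chow than on HFD. Without the filter, the log2 change was -0.42 for H2-DMb1 (SE 0.49) and 0.45 for Ciita (SE 0.58), both with an adjusted p of 0.907.

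The diet effect with and without siRNA was compared directly as the difference between the KD effects on the 2 diets. Again 0 of the 5 genes were called by limma, edgeR or DESeq2, against 0.0353% of all tested genes, and 0 had an unadjusted p under 0.05. The differences were 0.05 for H2-Aa (SE 0.54), -0.06 for H2-Ab1 (SE 0.51), -0.18 for H2-Eb1 (SE 0.49), -0.02 for Cd74 (SE 0.38) and 0.36 for H2-DMa (SE 0.60), on the log2 scale. The interval of H2-Aa ran from -1.08 to 1.18 and so held values as large as its diet effect itself. Without the filter, the difference was -0.06 for H2-DMb1 (SE 0.59) and 0.43 for Ciita (SE 0.74).

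**Figure D2:**
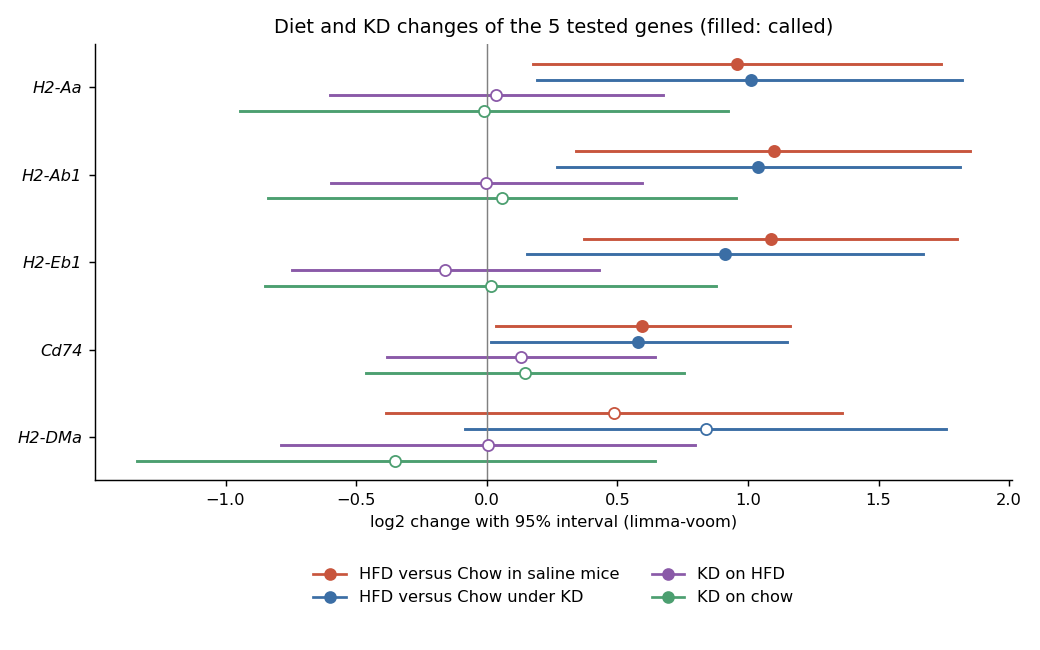
Log2 change (horizontal axis) of the 5 tested class II genes in both diet comparisons and both KD comparisons, with 95% intervals from limma-voom. Filled points were called. All diet changes of H2-Aa, H2-Ab1, H2-Eb1 and Cd74 are filled and above 0, and all KD changes are open with intervals across 0.

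The genes moved together from liver to liver. Pearson's r between a gene and the mean of the other tested members, over log2 levels in 16 libraries, was 0.935 for H2-Aa, 0.914 for H2-Ab1, 0.911 for Cd74 and 0.889 for H2-Eb1. It was 0.517 for H2-DMa, which had 120 counts in all. After the group means were subtracted, r was still 0.878 for H2-Aa, 0.832 for H2-Ab1, 0.912 for Cd74 and 0.779 for H2-Eb1, and 0.239 for H2-DMa. These values describe the same 16 libraries, and all genes of a library share its depth and scaling. The second Chow liver was lowest of all 16 in H2-Aa, H2-Ab1 and Cd74, and the fourth HFD/FGFR4 KD liver was highest of all in the same 3 genes.

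The proportion of one I-A chain to the other overlapped between all groups, whereas that of the invariant chain to the chains did not overlap between the diets, with or without siRNA. The ratio of H2-Aa to H2-Ab1 was 1.17 ± 0.12 in Chow, 1.12 ± 0.35 in Chow/FGFR4 KD, 1.06 ± 0.18 in HFD and 1.09 ± 0.14 in HFD/FGFR4 KD (SD, n = 4). The ratio of Cd74 to the sum of H2-Aa, H2-Ab1 and H2-Eb1 was 0.899 to 1.45 in Chow and 0.712 to 0.854 in HFD. It was 1.09 to 1.29 in Chow/FGFR4 KD and 0.807 to 1.02 in HFD/FGFR4 KD. In both pairs the HFD livers lay below all chow livers, the level of invariant chain mRNA per chain mRNA being lower on HFD. This ratio was chosen after the gene values were seen, and no test was made of it.

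Predicted genes (Gm and a number, or Rik) and genes without a symbol were left out of this ranking. Among the other tested genes, Ctss was the one whose level followed the 5 tested members most closely over the 16 libraries (r = 0.899). Ctss encodes cathepsin S, the protease that trims the invariant chain. The next 9 were Cenpb, Tcea3, Parp12, Samd9l, Stard9, Slc25a5, Gbp9, Ifi204 and Inpp5e (r = 0.828 to 0.866), of which Parp12, Samd9l, Gbp9 and Ifi204 are known as interferon-induced. After the group means were subtracted, Xpo6 led (r = 0.855), followed by Tmcc2, Anxa3, Fam162a and then Ctss (r = 0.798), the 1 gene among the 10 closest on both measures.

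Most genes listed for preparing antigen or the invariant chain, or for removing class II from the surface, also rose with the diet. Of 8 such genes 7 were tested, and 6 were called higher in HFD against Chow, where 13.3% of all tested genes were. All 7 had log2 changes above 0, with a list median of 0.38. Ctss was 7.86 ± 1.36 CPM in Chow and 16.5 ± 3.71 CPM in HFD, a log2 change of 1.05 (SE 0.24, adjusted p = 0.0139), and its groups did not overlap. Smaller rises were seen for Ifi30, the lysosomal thiol reductase (0.53), Lgmn, an asparagine endopeptidase (0.45), Marchf8, a ubiquitin ligase that removes class II from the surface (0.38), Ctsd (0.37) and Ctsb (0.35). Under KD 6 of the 7 were called higher as well, against 10.1% of all tested genes, with Ctsl in place of Ctsd and a median of 0.33. Ctsl, the cathepsin that trims the invariant chain in thymic epithelium, was also the only gene of this list called for KD on HFD, where it was 389 ± 21.3 CPM in HFD and 495 ± 47.0 CPM in HFD/FGFR4 KD (log2 change 0.35, SE 0.08, adjusted p = 0.0807).

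Of the 7 factors that bind class II promoters all were tested, and 3 were called lower in HFD against Chow, where 12.7% of all tested genes were. DESeq2 called 2 as lower, and 0 of the 7 were called higher by limma, edgeR or DESeq2. Rfxank, a subunit of the RFX complex, was 13.8 ± 2.20 CPM in Chow and 7.13 ± 1.48 CPM in HFD (log2 change -0.94, SE 0.20, adjusted p = 0.00796), and Rfxap, another subunit, changed by -0.38 (SE 0.17, adjusted p = 0.153). Creb1 changed by -0.42 (SE 0.14, adjusted p = 0.064). The groups of all 3 genes did not overlap, which was so downwards for 7.76% of all tested genes. The other 4, Rfx5 and the NF-Y subunits, had log2 changes of 0.07 to 0.41 and were not called. Under KD, Rfxank alone of the 7 was called lower (log2 change -0.59, SE 0.19, adjusted p = 0.0963), against 10.1% of all tested genes. The list median was then -0.08, with 3 of the 7 log2 changes above 0. For KD on HFD limma and edgeR called 0 of the 7 and DESeq2 called 1 higher, where limma called 1.5% of all tested genes higher. Limma gave 2 of the 7 an unadjusted p under 0.05, and 6 of the 7 log2 changes were above 0.

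Of the genes that lead from interferon gamma to Ciita, 7 of 9 were tested. In HFD against Chow 2 were called higher, where 13.3% of all tested genes were. The log2 change was above 0 in 6 of the 7, with a list median of 0.38. Among the 2 called genes was Ifngr2, a receptor chain (log2 change 0.54, SE 0.23, adjusted p = 0.141). Under KD 0 of the 7 were called by limma, edgeR or DESeq2, and 0 had an unadjusted p under 0.05. Ifngr2 had a log2 change of -0.13 (SE 0.23, adjusted p = 0.805). Ifng itself, looked up after the list was tested, reached 1 count in 1 liver and was at 0 in the other 15, which allows up to 3 counts a liver.

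The class I pathway shows peptides from within the cell. Its 13 genes were all tested in HFD against Chow, with a list median log2 change of 0.13 and 10 of the 13 above 0. Against 13.3% of all tested genes, 2 of the 13 were called higher. These were the peptide transporter genes Tap1 (0.81, SE 0.19, adjusted p = 0.0127) and Tap2 (0.54, SE 0.12, adjusted p = 0.0119), which lie in the same chromosome region as the class II genes. The heavy chain H2-K1 had a log2 change of 0.05 (SE 0.09) and was not called. Under KD 5 class I genes were called higher (Tap1, Psmb9, Tap2, Tapbp and H2-K1, 0.20 to 0.83) and 1, Psmb10, was called lower (-0.29, SE 0.12, adjusted p = 0.169). Of all tested genes 10.1% were called higher and 10.1% lower. The log2 change was above 0 in 8 of the 13 class I genes.

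The other class II genes were too low to test. H2-Oa and H2-Ob, the chains of the inhibitor of H2-DM that B cells make, had at most 2 counts in any liver, and H2-Eb2 at most 1. H2-DMb2 had at most 3.3 estimated counts. H2-Ea, the partner of H2-Eb1, which the H2b haplotype of this strain is known not to express, was at 0 in all 16 libraries, which allows up to 3 counts in each (0.432 to 0.908 CPM). Of 5 genes of T cell costimulation or inhibition 1 was tested, the inhibitory ligand gene Cd274, known as PD-L1. Its log2 change in HFD against Chow was 0.67 (SE 0.40, adjusted p = 0.301), which was not called.

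**Figure D3:**
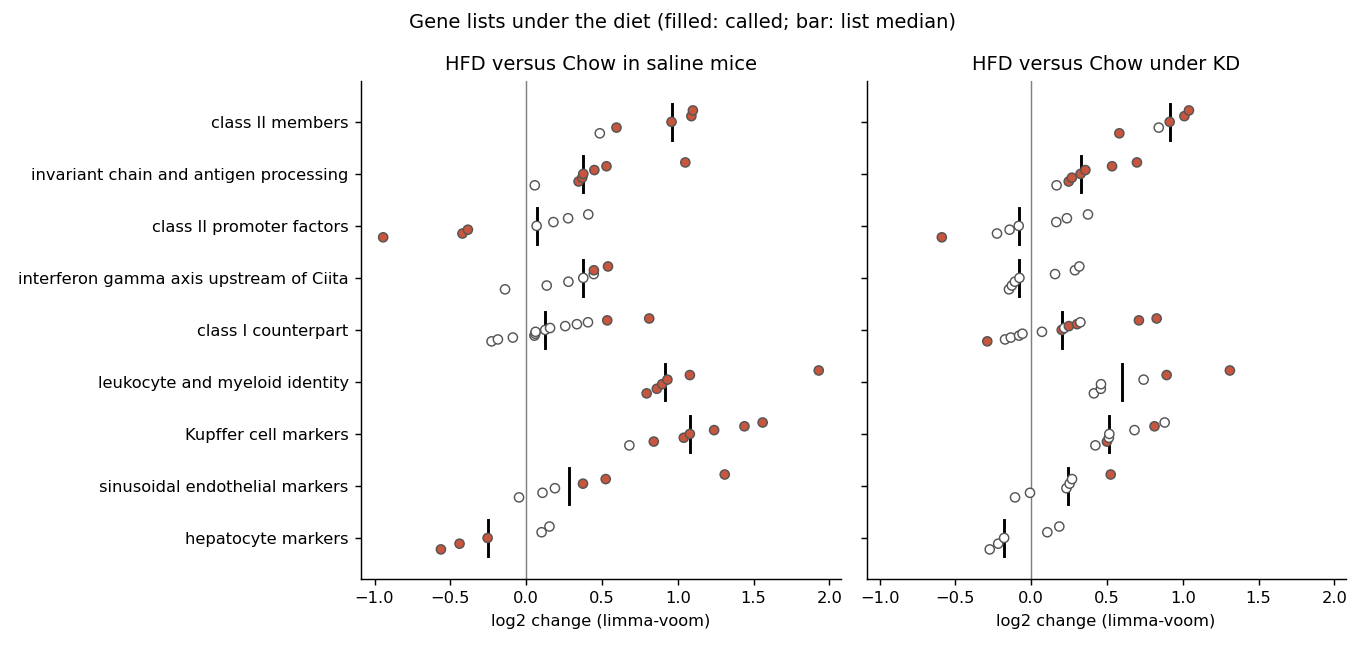
Log2 change (horizontal axis) of each tested gene of 9 lists for HFD against Chow without siRNA (left) and under KD (right). Points are genes, filled where called, and bars are list medians. The class II genes and the leukocyte and Kupffer lists lie to the right on the left panel, with medians of 0.96, 0.915 and 1.08, whereas the promoter factors include 3 called genes to the left of 0.

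The tested markers of leukocytes were higher in HFD than in Chow, as were the class II genes. In bulk liver, more cells of a type and more RNA per cell cannot be told apart. Of 7 leukocyte and myeloid genes 6 were tested, and all 6 were called higher in HFD against Chow, against 13.3% of all tested genes. These were Ptprc, Cd68, Lyz2, Tyrobp, Fcer1g and Laptm5, with log2 changes of 0.80 to 1.93 and a median of 0.915. The summed level of the 7 was 26.2 to 29.5 CPM in Chow and 39.2 to 70.9 CPM in HFD. Ptprc, the pan-leukocyte gene that encodes CD45, was 2.99 ± 0.89 CPM in Chow and 5.03 ± 1.08 CPM in HFD (log2 change 0.80, SE 0.28, adjusted p = 0.0802).

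Kupffer cell markers also rose. All 7 were tested, and 6 were called higher in HFD against Chow (Clec4f, Vsig4, Adgre1, Cd5l, Marco and Csf1r, with log2 changes of 0.84 to 1.56). Of all tested genes 13.3% were called higher. All 7 log2 changes were above 0, with a list median of 1.08. The summed level of the 7 was 51.1 to 60.1 CPM in Chow and 91.8 to 173 CPM in HFD. Under KD 2 of the 7 were called higher, Cd5l and Csf1r, against 10.1% of all tested genes. All 7 log2 changes were again above 0, with a list median of 0.515. Of the 6 leukocyte genes 2 were called higher under KD, Tyrobp and Fcer1g (edgeR called 4 and DESeq2 called 3). All 6 had log2 changes above 0, with a median of 0.60, where the class II median was 0.91. The Chow/FGFR4 KD livers stood higher than Chow livers in both lists, at 63.3 to 85.7 CPM for the Kupffer cell markers and 31.8 to 40.3 CPM for the leukocyte genes, while their class II sum overlapped that of Chow. For KD on HFD and KD on chow, limma, edgeR and DESeq2 called 0 genes of either list, and limma gave 1 gene an unadjusted p under 0.05 in each comparison.

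Markers of the other cells that make class II were sparse. Of 7 B cell markers only Ighm was tested, and it rose in HFD against Chow (log2 change 1.45, SE 0.50, adjusted p = 0.0797). The defining marker Cd79a reached at most 3 counts in any liver. Of 8 dendritic cell markers 2 were tested, and 0 were called or had an unadjusted p under 0.05 in limma, edgeR or DESeq2, with Zbtb46 at 3.47 ± 0.46 CPM in Chow and 4.71 ± 0.96 CPM in HFD. The summed dendritic cell markers were 5.27 to 6.78 CPM in Chow and 7.03 to 10.9 CPM in HFD, and the summed B cell markers 1.30 to 7.34 CPM and 5.07 to 11.3 CPM. T and NK cell markers, 0 of 8 tested, summed to 2.35 to 5.68 CPM in Chow and 1.42 to 3.11 CPM in HFD. Of the monocyte and recruited macrophage markers 2 of 8 were tested, and 0 were called or had an unadjusted p under 0.05 in the same 3 tools.

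Non-leukocyte markers moved as well. Of 6 sinusoidal endothelial markers 3 were called higher in HFD against Chow (Stab1, Stab2 and Lyve1), and 5 log2 changes were above 0. Of 5 stellate cell markers 3 were called higher (Dcn, Colec11 and Pdgfrb), and all 5 log2 changes were above 0. Over all tested genes 13.3% were called higher and 12.7% lower. Cidec, the 1 gene tested of 4 listed as adipocyte markers, rose by 3.62 on the log2 scale (SE 0.98, adjusted p = 0.0281). For KD on HFD limma called Cidec lower (log2 change -2.29), as it did 1.64% of all tested genes. It was called lower there in edgeR too, but not in DESeq2. The rest of this list did not pass the filter, so adipocyte RNA cannot be judged from it. Of 5 hepatocyte markers 3 were called lower (Serpina1a, Hnf4a and Apoa1, with log2 changes of -0.56 to -0.25), and 2 had log2 changes above 0 and were not called. Of 4 cholangiocyte markers Sox9 was tested, with a log2 change of -0.66 (SE 0.32, adjusted p = 0.205), which was not called. The 4 neutrophil markers were too low to test. The part of these cell types in the class II result was not tested.

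Both the class II sums and their ratios to leukocyte RNA overlapped between the diets. The ratio of the summed 7 genes to Ptprc was 17.2 ± 7.26 in Chow, 15.4 ± 4.72 in Chow/FGFR4 KD, 16.6 ± 4.35 in HFD and 18.2 ± 1.65 in HFD/FGFR4 KD (SD, n = 4). The ratio to the summed Kupffer cell markers was 0.845 ± 0.287, 0.704 ± 0.229, 0.766 ± 0.373 and 0.797 ± 0.216 in the same order, and that to the summed leukocyte genes 1.74 ± 0.74, 1.36 ± 0.32, 1.44 ± 0.34 and 1.63 ± 0.53. All of these ranges overlapped between the groups. The class II sums without division overlapped too, at 26.5 to 71.6 CPM in Chow and 57.7 to 114 CPM in HFD. Under KD they were 40.8 to 64.5 CPM on chow and 57.8 to 129 CPM on HFD. Overlap of the ratios therefore cannot show what part leukocyte RNA had, which was not tested. Single livers could be high in one of the class II and leukocyte sums and not in the other. The fourth Chow liver had the highest class II sum of its group, 71.6 CPM, and the lowest leukocyte sum, 26.2 CPM. The second HFD/FGFR4 KD liver had the lowest class II sum of its group, 57.8 CPM, with a leukocyte sum of 58.9 CPM, second to the 64.5 CPM of the fourth liver.

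**Figure D4:**
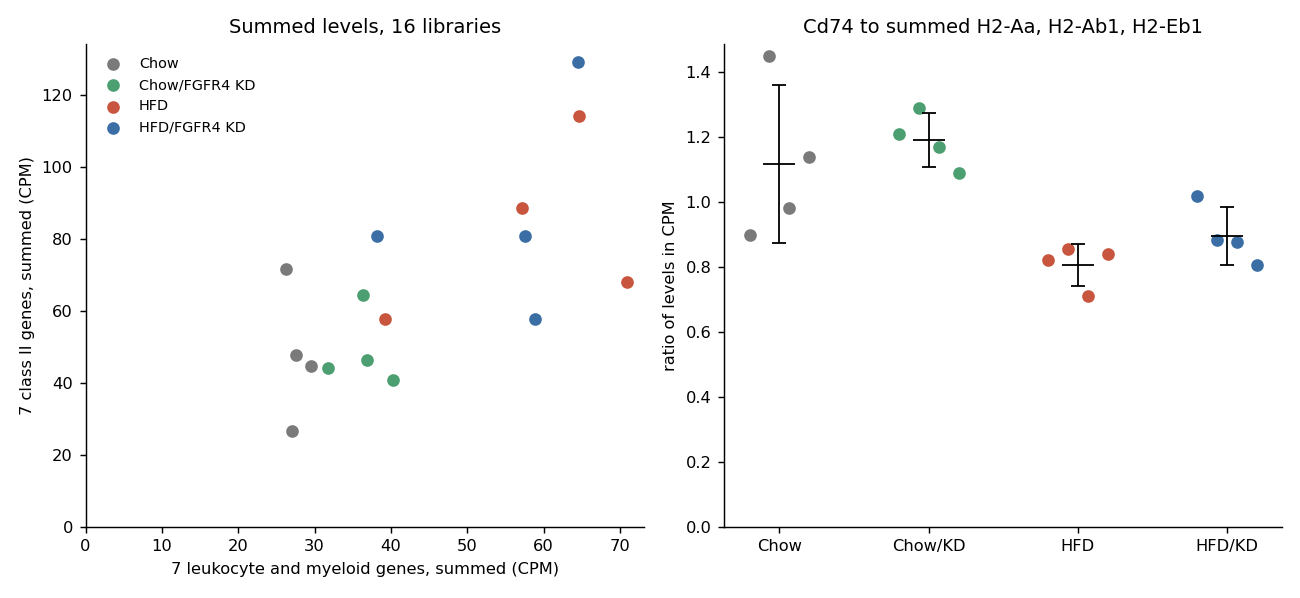
Left, the summed level of the 7 class II genes against the summed level of 7 leukocyte and myeloid genes in each of 16 livers, in CPM on linear axes from 0. Right, the ratio of Cd74 to the sum of H2-Aa, H2-Ab1 and H2-Eb1 per liver, with mean ± SD (n = 4). All HFD livers lie to the right of all Chow livers while their class II sums of 57.7 to 114 CPM overlap the Chow range of 26.5 to 71.6 CPM, and their Cd74 ratio of 0.712 to 0.854 lies below the Chow range of 0.899 to 1.45.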

How the data were processed

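Liver RNA from 16 mice was sequenced, and the deposited table holds the authors' estimated counts per gene, made from fastp-trimmed reads with kallisto (GRCm38) and summed with tximport per the submitters' processing notes and methods, with tool versions not given in the sources used here. The labels name the KAPA mRNA HyperPrep kit, whereas the methods of the study name HTG EdgeSeq, a probe assay. Which was used could not be settled, and levels per kilobase and shared words assume reads from whole transcripts. Symbols matched 98.3% of gene identifiers. The test was limma-voom (limma 3.58.1, edgeR 4.0.16, R 4.3.3) with TMM scaling and 1 mean per group over all 16 libraries, on 11324 of 52143 genes, with Benjamini-Hochberg adjustment over all of them. Recovery was tested on simulated data. Alternatives were DESeq2 1.42.0 and the quasi-likelihood test of edgeR (on rounded counts), other filters, scalings and weights, a replicate block, and each library left out. The genes and lists were chosen with earlier results of these data known. Named genes were the 7 members and, of each list, called genes or else its most abundant, apart from some that are not reported here. Likeness used log2 CPM with a prior count of 2. Replicate libraries differed beyond counting noise (chi-square per degree of freedom 7.59 to 72.6 within groups). Depth (the total count per library) limits precision, and floors of 3 counts cover counting error only. Word sharing and positions used GENCODE vM21, and promoter windows RefSeq.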

Additional observations from a re-analysis of the deposited data

Results flagged for a closer look

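H2-DMa was 3.89 CPM (15 counts) in the fourth HFD/FGFR4 KD liver, far from the other 3 livers of the group, of which the nearest was 1.52 CPM. The gap took 0.926 of the range of the group, above Dixon's 95% critical value for 4 samples. Of 28 groups of values (7 genes in 4 groups) 1 stood out in this way, where chance gives 1.4. The same liver was the highest of its group in H2-Aa, H2-Ab1, H2-Eb1, Cd74 and H2-DMb1, and H2-DMa shares sequence with its neighbour Brd2.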

How the results depend on the processing

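Over 11 other settings, H2-Aa, H2-Ab1 and H2-Eb1 were called for HFD against Chow in all 11, with log2 changes of 0.914 to 1.26, 0.995 to 1.39 and 1.06 to 1.36, and Cd74 in 9 (0.553 to 0.875). Under KD, H2-Aa and H2-Ab1 were called in all 11 (0.97 to 1.15 and 1.02 to 1.18), H2-Eb1 in 10 (0.898 to 1.05) and Cd74 in 8 (0.538 to 0.737). At an adjusted p under 0.05 the members called in limma went from 4 to 0 in both diet comparisons (4 had an unadjusted p under 0.05 in each, and edgeR and DESeq2 called 1 and 2 and, under KD, 0 and 0, whereas limma with library totals called 4 and 0). With 1 liver left out, 2 to 4 members were called without siRNA and 0 to 4 under KD. The cause was not tested. Depth limits H2-DMa, H2-DMb1 and Ciita most.

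The KD effects lay near 0 and were not called by any tool or setting, and their signs changed as follows. For KD on HFD, H2-Ab1 was 0.0452 in edgeR, 0.0568 in DESeq2, 0.00245 with genes at 1 CPM or more in at least 4 libraries kept, and 0.0135 with the replicate block. H2-DMa was -0.00778 with that filter and -0.0909 with library totals, where H2-Aa was -0.0423. For KD on chow, H2-Ab1 was -0.019 in edgeR, -0.00165 in DESeq2 and -0.0171 with quality weights, and H2-Eb1 was -0.0547, -0.056 and -0.0163 in the same order. H2-Aa was 0.0628 with library totals. For the difference of the KD effects, H2-Ab1 was 0.0642 in edgeR, 0.0584 in DESeq2, 0.000763 with quality weights and 0.00383 with the replicate block. Cd74 was 0.0546, 0.0607 and, with upper quartile factors, 0.00123, and H2-Aa was -0.105 with library totals. With 1 liver left out, KD on HFD ranged from -0.163 to 0.257 for H2-Aa, -0.187 to 0.188 for H2-Ab1, -0.358 to 0.0742 for H2-Eb1, -0.0348 to 0.316 for Cd74 and -0.3 to 0.168 for H2-DMa. KD on chow ranged from -0.373 to 0.146 for H2-Aa, -0.32 to 0.274 for H2-Ab1, -0.173 to 0.259 for H2-Eb1, -0.0337 to 0.37 for Cd74 and -0.591 to 0.0659 for H2-DMa. The difference ranged from -0.154 to 0.409 for H2-Aa, -0.275 to 0.318 for H2-Ab1, -0.417 to 0.0583 for H2-Eb1, -0.238 to 0.169 for Cd74 and -0.0602 to 0.595 for H2-DMa.

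Over all genes, calls for HFD against Chow went from 2939 to 5324 with no filter, for KD on HFD from 356 to 230 in edgeR, 114 with library totals and 776 with quality weights, and for the difference from 4 to 54 in DESeq2, 7 with no filter or with quality weights, 2 with the block and 0 with library totals. For KD on chow 2 genes were called in DESeq2 and in a fit of only the groups compared, and 3 with library totals, against 1. Deviations of libraries with the same replicate number had r of -0.291 to 0.239, above 0.1 in 7 of 24 pairs. Libraries with different numbers were not compared in this way, so whether the numbers pair libraries cannot be told. With the replicate block the counts were 2949, 2295, 259, 1 and 2, and the calls of the 5 tested members changed only for H2-DMa under KD (0.885, adjusted p = 0.233 in limma, where library totals gave 0.983 and 0.239). H2-DMb1 under KD, called at 1.20 without the filter, was not called with the block (1.07, adjusted p = 0.323 in limma).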
